A study of Mus musculus with 12 samples.

Results

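Mitochondrial fatty acid oxidation was followed through 32 genes in interscapular brown adipose tissue of the mouse, a depot that burns fat to make heat. The 32 genes were given as a list of the carnitine shuttle, the acyl-CoA dehydrogenases, the later steps of the beta-oxidation spiral, the electron transfer flavoprotein system and a few enzymes of malonyl-CoA and mitochondrial acyl-CoA synthesis, out of 54356 genes in the annotation. All 32 passed the filter on low counts.

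Long-chain fatty acids reach the matrix of mitochondria only as carnitine esters. A carnitine palmitoyltransferase 1 on the outer membrane makes the ester, a carrier moves it across the inner membrane and carnitine palmitoyltransferase 2 turns it back into acyl-CoA. Malonyl-CoA, the first product of fatty acid synthesis, inhibits the outer enzyme. Each round of the spiral then shortens the chain by an acetyl unit through a dehydrogenase, a hydratase, a further dehydrogenase and a thiolase, with different enzymes for long and for short chains, and electrons leave through the electron transfer flavoprotein. In brown fat this pathway fuels uncoupled respiration during cold exposure.

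Poly(A) RNA was sequenced from 6 cold and 6 ctrl mice, all male wild-type C57BL/6N animals aged 20 weeks with no transgene or other allele named in the labels. The cold animals, numbered 4, 7, 11, 12, 15 and 16, are read here as the ones kept alone at 4 °C for 24 h, and the ctrl animals, numbered 2, 5, 6, 9, 10 and 14, as kept in the colony at 22 to 24 °C. The labels attach the cold housing text to all 12 samples, so how ctrl animals were housed on the last day is not stated, and the extraction text names another fat depot (eWAT). The design text gives n = 3 for the cold group where the labels hold 6. Each library is 1 numbered mouse.

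Libraries held 17.0 M to 31.4 M assigned reads in cold and 16.0 M to 26.8 M in ctrl. The brown adipocyte markers, among them Ucp1 and Cidea, summed to 13124 to 16662 CPM (TMM-scaled counts per M reads) in cold and 9092 to 14957 CPM in ctrl, with 10 of 10 markers above the filter. Skeletal muscle markers varied most between libraries, from 204 to 5914 CPM (median 1010.3) in cold and from 141 to 1846 CPM (median 963) in ctrl, with the highest sum in cold 15. None of their 14 genes passed the test (edgeR), although their median log2 fold change was 1.15. Endothelial markers summed to 763 to 988 CPM in cold and 740.5 to 1006 CPM in ctrl, macrophage markers to 43.3 to 65.6 CPM in cold and 37.4 to 66.2 CPM in ctrl, and fibroblast and progenitor markers to 129 to 223 CPM in cold and 153 to 258 CPM in ctrl. White adipocyte markers summed to 23.8 to 60.3 CPM in cold and 21.0 to 114 CPM in ctrl, with 1 of 7 (Hoxc10) at 0 in every library. Among these marker genes Cidea, Ppargc1a, Dio2 and Zic1 (4 of 10 brown adipocyte markers) were called higher in cold. The other 6 were not called: Ucp1 (log2 fold change 0.22), Ebf2 (0.12), Prdm16 (0.05), Cox7a1 (-0.02), Lhx8 (-0.15) and Cox8b (-0.52). Pecam1 (endothelium, 0.36), Cd68 (macrophage, 0.77) and Mest (white adipocyte, 0.85) were called higher, and Tek (endothelium, -0.54), Col1a1 and Col1a2 (fibroblast, -0.51 and -0.61) lower (log2 fold changes, edgeR). Their part in the members' differences was not tested. Cold 4 was the highest cold library for 20 of the 32 genes, and results that rest on it are also given without it. Ctrl 9 was the lowest ctrl library for 18 of the 32 and cold 15 the lowest cold library for 16, and without either of them 8 members were higher and 4 lower, as with all 12 libraries. Fewer cells of a type and less RNA per cell cannot be told apart in such tissue samples.

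Promoter letters of 4 genes that changed are shown first, because their transcripts moved in opposite directions (Cpt1a, Slc22a5 and Mlycd higher, Eci1 lower in cold), followed by the stretch between Hadha and Hadhb, the paired subunit genes that lie head to head. The letters are RefSeq's (GRCm38.p6), 5′ to 3′ on the gene's own strand, cut where an annotated exon begins. Those of Cpt1a lie inside its GENCODE gene span (3322334 to 3385733), since its RefSeq start site lies downstream of the GENCODE start. Those of Slc22a5, Mlycd and Eci1 lie outside the GENCODE spans of their genes. Capitals mark GGGCGG (the GC box), CCAAT (the CCAAT box) or TGACG (the core of a cyclic AMP response element) on either strand.
Cpt1a, chr19:3323051-3323284, plus strand: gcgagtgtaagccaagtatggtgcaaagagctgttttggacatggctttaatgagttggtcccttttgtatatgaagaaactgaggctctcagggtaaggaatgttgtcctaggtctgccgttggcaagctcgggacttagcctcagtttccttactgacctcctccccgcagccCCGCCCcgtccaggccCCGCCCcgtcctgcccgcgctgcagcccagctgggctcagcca
Slc22a5, chr11:53891704-53891953, minus strand: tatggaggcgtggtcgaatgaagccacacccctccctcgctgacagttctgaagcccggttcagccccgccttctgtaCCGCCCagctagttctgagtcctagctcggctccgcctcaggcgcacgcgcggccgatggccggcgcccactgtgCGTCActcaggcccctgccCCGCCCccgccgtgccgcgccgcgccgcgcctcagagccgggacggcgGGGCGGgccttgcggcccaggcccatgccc
Mlycd, chr8:119394644-119394877, plus strand: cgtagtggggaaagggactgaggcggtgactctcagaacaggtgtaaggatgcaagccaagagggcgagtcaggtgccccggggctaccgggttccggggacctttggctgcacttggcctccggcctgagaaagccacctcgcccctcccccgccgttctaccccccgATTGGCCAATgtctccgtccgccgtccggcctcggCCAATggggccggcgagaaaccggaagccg
Eci1, chr17:24426433-24426640, plus strand: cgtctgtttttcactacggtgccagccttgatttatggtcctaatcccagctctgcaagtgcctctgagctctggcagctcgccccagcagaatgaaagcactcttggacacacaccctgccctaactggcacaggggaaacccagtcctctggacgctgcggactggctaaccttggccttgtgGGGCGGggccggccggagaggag
Hadha to Hadhb, chr5:30155163-30155247, plus strand: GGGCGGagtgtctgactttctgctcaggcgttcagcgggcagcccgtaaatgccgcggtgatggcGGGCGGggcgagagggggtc

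Cpt1a holds 2 GC boxes in these letters and Slc22a5 holds 3 with 1 such core. Mlycd holds 3 CCAAT boxes and no GC box, and Eci1 holds 1 GC box. Cpt1a also has a CCAAT box, which crosses the cut end of its letters and so is not in capitals. The RefSeq start sites of Hadha, on the minus strand, and Hadhb, on the plus strand, are 273 bases apart, and the 85 bases free of annotated exons between them hold 2 GC boxes. Over the 250 bases before the start site, 17 of the 26 members with a promoter in the table held GGGCGG (65.4%) against 32.7% of 32851 promoters, and 13 held CCAAT (50.0%) against 33.8%. The windows of Hadha and Hadhb share 228 bases, and 1 GC box there is counted for both genes. TGACG stood in 8 of 26 (30.8%) against 17.8%. The whole element TGACGTCA, the direct repeat of AGGTCA with 1 base between the copies and the letters TNAAGGTCA were in none of the 26, and in 1.55%, 0.0335% and 1.14% of all promoters. Every motif was searched on both strands, and CCAAT and GGGCGG were added after seeing the data. Members' windows had a median GC content of 59.6%, against 52.4% over all promoters. A match is a description of letters, and no match says only that those letters are not in this window.

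The question the groups pose is how the expression of these genes after 24 h of cold differs from that of ctrl animals. Genes of carnitine uptake and of the carnitine transferases were higher in cold in 5 of 7 cases. Of the 4 genes for the medium- and short-chain hydratase, dehydrogenase and thiolase steps 3 were lower, and Eci1, an isomerase for unsaturated chains, was lower as well. Between these lay the acyl-CoA dehydrogenases and the trifunctional protein, where 1 of 10 genes passed the test. A gene is called here when its adjusted p is under 0.05 in edgeR's quasi-likelihood test over all genes, two-sided, with Benjamini-Hochberg adjustment. Of the 13876 genes tested 31.6% were called, 16.2% as higher and 15.4% as lower in cold.

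Over all 32 genes, 8 were higher in cold, 4 were lower and 20 did not pass. That is 37.5% called. The share of called members is thus near that of all genes. How the calls divide by step is a description only. No test compared the steps, each step holds few genes, and the lists were chosen with earlier results of these data known. The median log2 fold change of the members was 0.05, against -0.01 over all genes. When library totals replaced TMM factors, 67.3% of all called genes were higher rather than 51.3%, while the same 12 members kept their calls and directions. For 10 of the 32 members (31.2%), all of them called, cold and ctrl ranges lay apart, against 16.3% of all genes tested. The members together took 2.51 ± 0.10% of all reads in cold and 2.27 ± 0.17% in ctrl (SD, n = 6 each). These shares carry no TMM scaling, and their ranges overlapped (2.41% to 2.70% in cold, 2.08% to 2.51% in ctrl).

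**Figure D1:**
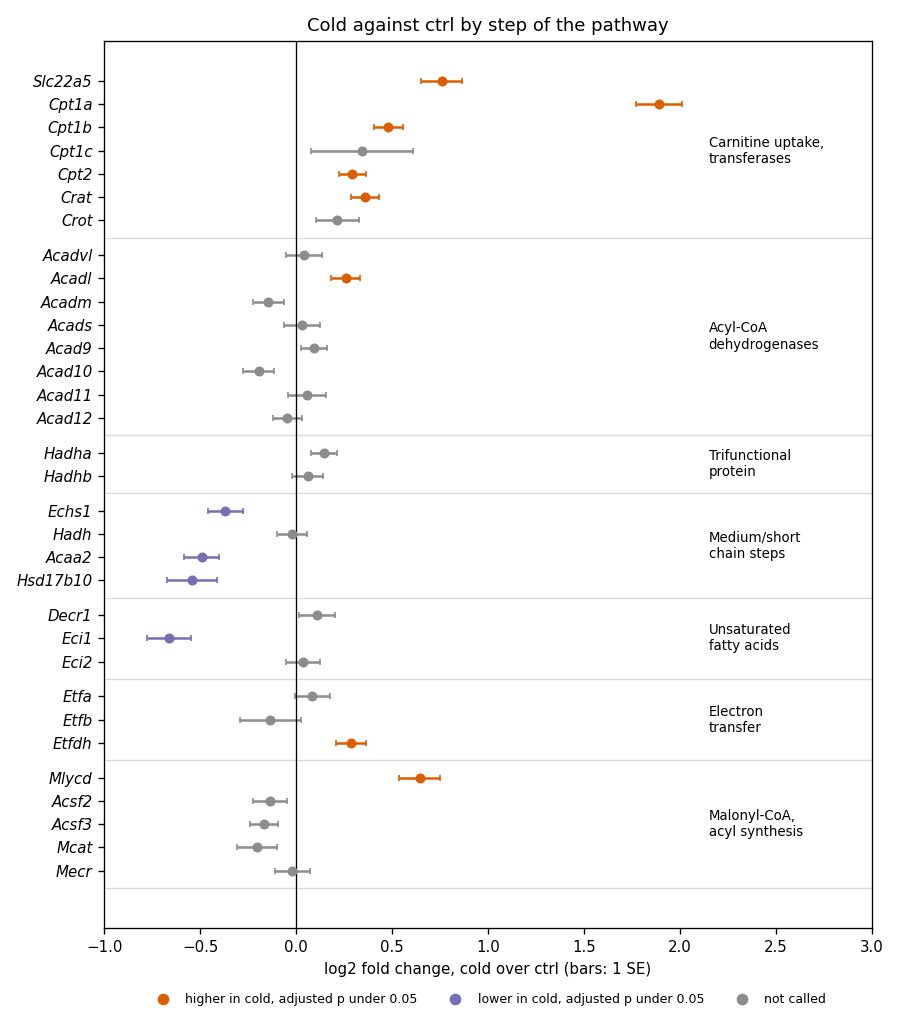
Log2 fold change of each of the 32 genes, cold over ctrl, on the horizontal axis, with genes grouped by step of the pathway and bars of 1 standard error (6 animals a group). Cpt1a stands furthest to the right at 1.89 and Eci1 furthest to the left at -0.66, and the carnitine genes lie to the right of 0.

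Cpt1a had the largest difference of any member. It encodes the liver-type carnitine palmitoyltransferase 1, a form of the entry enzyme for long-chain fatty acids. Its level ran from 61.1 to 98.6 CPM (median 89.8) in cold, against 18.1 to 26.8 CPM (median 23.3) in ctrl. Every cold animal was above every ctrl animal, and cold 4 was the lowest of the cold group. The log2 fold change was 1.89 ± 0.12 (SE), or 3.71-fold (adjusted p = 1.79e-08, edgeR), and 1.98 without cold 4. The gene lies on chromosome 19 at 3322334 to 3385733 (GRCm38, GENCODE, as for all gene coordinates here).

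Slc22a5 encodes OCTN2, the sodium-dependent carnitine transporter of the plasma membrane. It ran from 93.1 to 110.2 CPM (median 102) in cold and from 42.3 to 72.9 CPM (median 63.2) in ctrl. The groups did not overlap, and ctrl 9 was the lowest. Its log2 fold change was 0.76 ± 0.11 (adjusted p = 4.88e-05, edgeR). Of its 31-base words 37.8% also occur in other genes, chiefly Slc22a21 and Slc22a4. These stood at 0.600 and 2.01 CPM in cold and 1.18 and 1.49 CPM in ctrl. Such levels rest on how shared reads were divided, and the part of that division in the Slc22a5 difference was not tested. Slc22a5 lies on chromosome 11 at 53864542 to 53891660.

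Cpt1b, the muscle-type carnitine palmitoyltransferase 1, is the form that brown fat and muscle mainly use. Its level was 1604 to 1814 CPM (median 1726) in cold, against 1045 to 1359.9 CPM (median 1258) in ctrl, again without overlap. In log2 terms Cpt1b rose by 0.48 ± 0.08 (adjusted p = 1.59e-04, edgeR), a smaller relative rise than that of Cpt1a on a level many times higher. The annotated exons of Cpt1b share 81.4% of their bases with Gm44502, a gene model on the same strand, which held 9.00 CPM in cold and 8.55 CPM in ctrl. Cpt1b lies on chromosome 15 at 89416405 to 89425863. Skeletal muscle also expresses Cpt1b, and with the muscle marker level as a covariate the log2 fold change was 0.50 (adjusted p = 1.90e-04, edgeR). Such a fit does not measure how much of the Cpt1b RNA came from muscle, and that part was not tested.

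Per unit of length, Cpt1a and Cpt1b can be set against each other. In CPM per kilobase of annotated transcript, Cpt1a was at 20.0 ± 3.09 in cold and 5.59 ± 1.06 in ctrl, and Cpt1b at 638 ± 27.3 in cold and 470.0 ± 44.03 in ctrl (SD, n = 6 each). Cpt1a thus made up 2.14% to 3.40% of the summed Cpt1 level in cold (mean 3.04 ± 0.47%), against 0.95% to 1.46% in ctrl (mean 1.18 ± 0.21%). The ranges did not overlap, and cold 4 was the lowest cold animal. The ratio of Cpt1b to Cpt1a averaged 32.7 ± 6.57 in cold and 86.1 ± 15.4 in ctrl. Cpt1c, the neuronal form, had the lowest counts of the members, with 1.46 to 3.52 CPM in cold and 1.06 to 2.75 CPM in ctrl, and was not called (log2 fold change 0.34 ± 0.27, adjusted p = 0.359, edgeR).

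**Figure D2:**
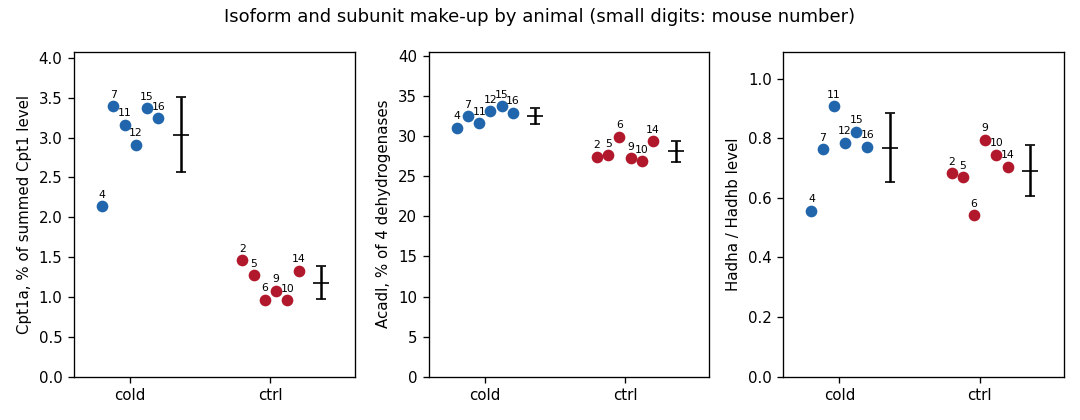
Make-up of paired enzymes in each animal, from per-length levels, with cold to the left of ctrl, the mouse number at each point and the mean and SD beside them. Cpt1a took 2.14% to 3.40% of the Cpt1 level in cold and 0.95% to 1.46% in ctrl, Acadl took more of the 4 dehydrogenases in every cold animal, and the Hadha to Hadhb ratios overlapped.

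Cpt2, on the inner membrane, completes the shuttle by returning the acyl group to coenzyme A. It was at 544 to 604 CPM (median 560.3) in cold and 408 to 508 CPM (median 468) in ctrl, without overlap (log2 fold change 0.29 ± 0.07, adjusted p = 4.99e-03, edgeR). Crat, carnitine acetyltransferase, trades acetyl units between carnitine and coenzyme A. Crat was at 1204 to 1379.7 CPM (median 1329) in cold and 877 to 1122 CPM (median 1028) in ctrl, without overlap (0.36 ± 0.07, adjusted p = 1.41e-03, edgeR). The rises of 1.23-fold for Cpt2 and 1.28-fold for Crat were smaller than those of Cpt1a and Slc22a5. Crot, the peroxisomal octanoyltransferase, overlapped between the groups at 33.9 to 41.9 CPM in cold and 25.8 to 43.9 CPM in ctrl (0.22 ± 0.11, adjusted p = 0.167, edgeR). Without ctrl 14, its highest ctrl animal, Crot passed at 0.31 (adjusted p = 0.0292, edgeR). Cpt2 lies on chromosome 4 at 107903981 to 107923610 and Crat on chromosome 2 at 30400471 to 30415813.

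Of the 8 acyl-CoA dehydrogenases, which start each round of the spiral, only Acadl passed the test. Acadl, the long-chain enzyme, was at 2193 to 2641 CPM (median 2294) in cold and 1712 to 2067 CPM (median 1976) in ctrl. The groups did not overlap, with cold 4 highest in cold and ctrl 9 lowest in ctrl (log2 fold change 0.26 ± 0.08, adjusted p = 0.0147, edgeR). Within the per-length sum of Acadvl, Acadl, Acadm and Acads, Acadl made up 32.5 ± 1.00% in cold and 28.1 ± 1.26% in ctrl, again with no overlap. The share of Acadm, the medium-chain enzyme, was 25.7 ± 1.07% in cold and 29.7 ± 2.26% in ctrl, with overlap. Acadl lies on chromosome 1 at 66830839 to 66863277.

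Acadvl, the very-long-chain enzyme, had the highest count of all members with 2446 to 3520.0 CPM in cold and 2409 to 2915 CPM in ctrl, and did not pass (0.04 ± 0.09, adjusted p = 0.775, edgeR). The cold 4 value of 3520.0 CPM lay far above the other cold animals, and without it the log2 fold change was -0.04. Acadm was at 1585 ± 112 CPM in cold and 1751 ± 153 CPM in ctrl, and Acads, the short-chain enzyme, at 482 ± 58.5 and 472 ± 44.9 CPM in cold and ctrl. Acad9, better known as an assembly factor of complex I, stood at 63.2 ± 4.06 CPM in cold and 59.3 ± 3.48 CPM in ctrl, with 19.1% of its 31-base words shared. Acad10, Acad11 and Acad12, whose substrates are less well defined, had log2 fold changes of -0.19, 0.06 and -0.05. Acad10 and Acad12 share 23.8% and 24.4% of their 31-base words with other genes, first of all with each other, so reads could be split between them. Acad10 was the nearest of these to a call (adjusted p = 0.0753, edgeR) and passed in 4 alternatives, including a stricter filter on low counts (adjusted p = 0.0470, edgeR).

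The mitochondrial trifunctional protein carries out the last 3 steps for long chains, with the hydratase and the dehydrogenase on the Hadha subunit and the thiolase on the Hadhb subunit. Hadha was at 2413 to 2804 CPM (median 2688) in cold and 2248 to 2553 CPM (median 2369) in ctrl, and was not called (0.15 ± 0.07, adjusted p = 0.118, edgeR). Its 95% interval ran from 0.00 to 0.29, and it passed without cold 4 (0.17, adjusted p = 0.0287, edgeR), with library totals (0.24, adjusted p = 0.0360) and in DESeq2 (0.15, adjusted p = 0.0213). Hadhb was at 1981 to 2462 CPM in cold and 1869 to 2374 CPM in ctrl (0.06 ± 0.08, adjusted p = 0.6246, edgeR), and 23.3% of its 31-base words also occur in other genes, first of all the pseudogene Gm13910, which held 1.83 CPM in cold and 1.27 CPM in ctrl. The 2 genes are transcribed away from each other, and per length Hadha reached 0.77 ± 0.12 of Hadhb in cold and 0.69 ± 0.09 in ctrl, with overlapping ranges. Hadha lies on chromosome 5 at 30118304 to 30155162 and Hadhb at 30155248 to 30184593.

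Of the 4 enzymes that handle shorter chains at these steps, Acaa2, Echs1 and Hsd17b10 were lower in cold and Hadh was not called. Whether they differ from the trifunctional protein in response was not tested. Acaa2, the medium-chain 3-ketoacyl-CoA thiolase, had 1237 to 1798 CPM (median 1392) in cold, against 1798 to 2201 CPM (median 2042) in ctrl. Its groups just failed to touch, since the highest cold animal (cold 4) and the lowest ctrl animal (ctrl 14) were both at 1798 CPM when rounded. The log2 fold change was -0.49 ± 0.09 (adjusted p = 6.39e-04, edgeR), and -0.57 without cold 4. Acaa2 lies on chromosome 18 at 74779197 to 74806208.

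Echs1, the short-chain enoyl-CoA hydratase, had 442 to 649.6 CPM (median 499) in cold and 592 to 717 CPM (median 681) in ctrl. The overlap came from cold 4 alone, whose 649.6 CPM lay among the ctrl values (log2 fold change -0.37 ± 0.09, adjusted p = 5.14e-03, edgeR). Hsd17b10, a short-chain 3-hydroxyacyl-CoA dehydrogenase that is also part of the mitochondrial RNase P, had 50.7 to 86.3 CPM (median 54.2) in cold and 69.6 to 97.6 CPM (median 88.9) in ctrl. Cold 4 was at 86.3 CPM and the other 5 cold animals at 55.3 CPM or less, under every ctrl animal. For Hsd17b10 the log2 fold change was -0.54 ± 0.13 (adjusted p = 4.36e-03, edgeR), and -0.68 without cold 4. Hadh, the medium- and short-chain 3-hydroxyacyl-CoA dehydrogenase, had 1264 ± 105 CPM in cold and 1282 ± 99.9 CPM in ctrl (-0.02 ± 0.08, adjusted p = 0.874, edgeR). Echs1 lies on chromosome 7 at 140105710 to 140116476 and Hsd17b10 on chromosome X at 152001845 to 152004442.

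Of the 3 auxiliary enzymes for unsaturated fatty acids, Eci1 had the largest fall of any member. Eci1 is the enoyl-CoA isomerase that moves a misplaced double bond so that the spiral can go on. Eci1 was at 243 to 411 CPM (median 288) in cold, against 412 to 531 CPM (median 499.6) in ctrl. The groups did not overlap, though the highest cold animal (cold 4) and the lowest ctrl animal (ctrl 14) almost met. The log2 fold change was -0.66 ± 0.11 (adjusted p = 2.72e-04, edgeR), and -0.77 without cold 4. Eci1 lies on chromosome 17 at 24426641 to 24439348. Eci2, another isomerase, was at 142 to 201 CPM in cold and 135 to 169.5 CPM in ctrl (0.04 ± 0.09, adjusted p = 0.796, edgeR). Decr1, the 2,4-dienoyl-CoA reductase, was at 584 ± 70.2 CPM in cold and 542 ± 54.3 CPM in ctrl (0.11 ± 0.09, adjusted p = 0.426, edgeR).

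**Figure D3:**
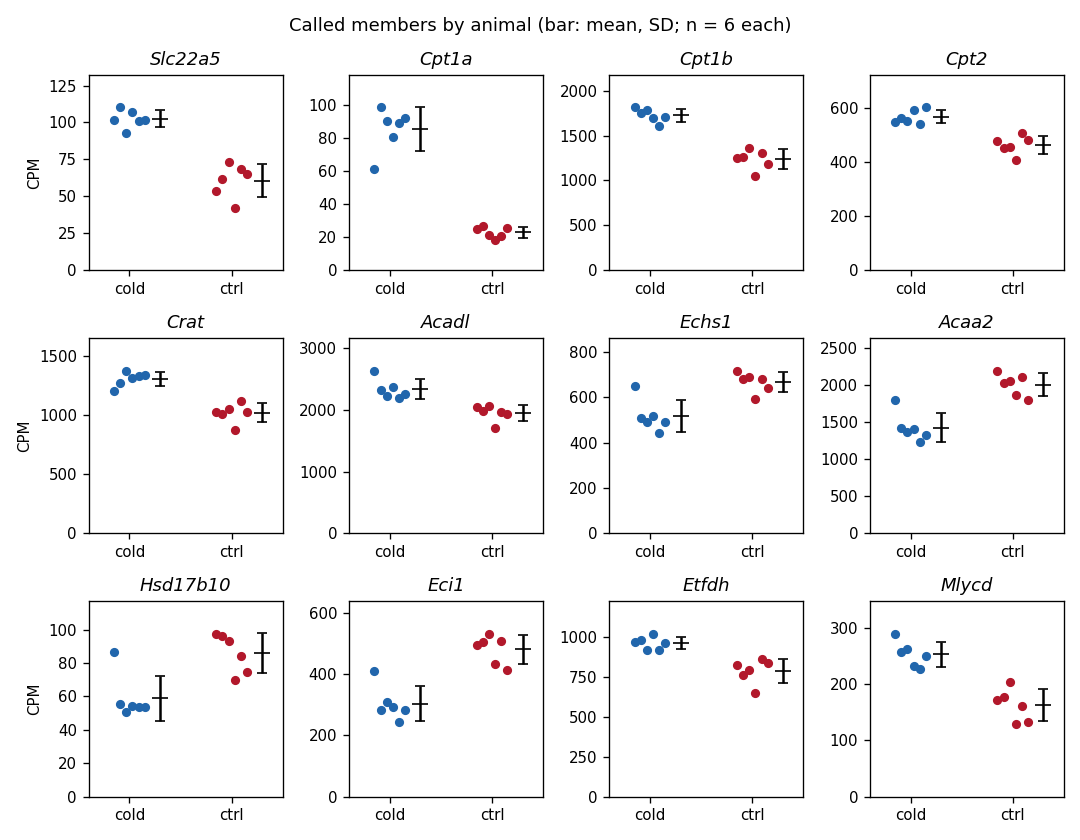
CPM in each animal for the 12 called genes, cold to the left of ctrl, with axes starting at 0 and the mean and SD beside the points. Cold lay above ctrl without overlap in 8 panels, below without overlap for Acaa2 and Eci1, and 1 cold animal (cold 4) reached into the ctrl range for Echs1 and Hsd17b10.

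Electrons from the dehydrogenases pass to the flavoprotein made of Etfa and Etfb and from there, through Etfdh, to ubiquinone. Etfdh was at 917 to 1018 CPM (median 962) in cold and 649 to 859 CPM (median 808) in ctrl, without overlap (log2 fold change 0.29 ± 0.08, adjusted p = 9.85e-03, edgeR). Etfa, at 852 ± 104 CPM in cold and 804 ± 73.4 CPM in ctrl, was not called (0.08 ± 0.09, adjusted p = 0.526, edgeR). Etfb varied most of the abundant members, from 842 to 1579 CPM in cold and from 871 to 1322 CPM in ctrl, and was not called (-0.13 ± 0.16, adjusted p = 0.563, edgeR). The 1579 CPM belonged to cold 4. Without that library Etfb was lower in cold, at -0.30 (adjusted p = 0.0291, edgeR). Per length, Etfa reached 0.46 ± 0.055 of Etfb in cold and 0.40 ± 0.041 in ctrl, with overlap. Etfb shares 53.0% of its exon bases with Gm45233 on the same strand, which held 0.590 CPM in cold and 0.465 CPM in ctrl. Etfdh lies on chromosome 3 at 79603788 to 79629500.

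Mlycd encodes malonyl-CoA decarboxylase, which removes the inhibitor of carnitine palmitoyltransferase 1. It was at 228 to 289.5 CPM (median 254) in cold, against 129 to 203 CPM (median 166) in ctrl, with no overlap. In log2 terms Mlycd rose by 0.64 ± 0.11 (adjusted p = 2.61e-04, edgeR), the third largest rise of the members after Cpt1a and Slc22a5. Acsf3, which makes malonyl-CoA inside mitochondria, was at 160.2 ± 14.0 CPM in cold and 179.9 ± 8.60 CPM in ctrl (-0.17 ± 0.07, adjusted p = 0.0935, edgeR). Mcat and Mecr, the malonyl transferase and the enoyl reductase of mitochondrial fatty acid synthesis, were at 42.2 ± 8.11 and 212 ± 29.7 CPM in cold, against 48.6 ± 3.13 and 215 ± 15.4 CPM in ctrl. Acsf2, a medium-chain acyl-CoA synthetase, was at 137 ± 13.2 CPM in cold and 151 ± 17.7 CPM in ctrl, and none of these 4 was called. Acsf2 shares 40.3% of its 31-base words with the pseudogene Gm5540, which held 0.0736 CPM in cold and 0.0765 CPM in ctrl. Without cold 4, Acsf3 (-0.21, adjusted p = 0.0146) and Mcat (-0.31, adjusted p = 1.30e-03) passed as lower in cold (edgeR). Mlycd lies on chromosome 8 at 119394878 to 119411102.

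Leaving out cold 4 changed the count of called members to 9 higher and 7 lower, in place of 8 and 4. The fold changes of the 12 called members kept their direction and their calls there and in each of the other alternatives, 24 in all. Acadl came nearest to losing its call (highest adjusted p = 0.0478 over the edgeR, DESeq2 and limma-voom fits). Cold 4 also had the most assigned reads of the 12 libraries, 31.4 M, and the part of depth in this pattern was not tested. Skeletal muscle markers moved with single libraries as described, and with their mean level as a covariate all 12 calls held. When the animals were divided by mouse number (2 to 7 and 9 to 16), the labels naming no batch, the 12 called members kept their direction in both sets. Cpt1a differed by 1.65 among the low and 2.02 among the high numbers, and Eci1 by -0.58 and -0.68 (difference of mean log2 CPM).

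By chain length, 4 of 8 genes with very-long- and long-chain substrates were higher and none lower (Cpt1a, Cpt1b, Cpt2 and Acadl). Of all genes tested 16.2% were higher and 15.4% lower. Cpt1a, Cpt1b and Cpt2 are also counted among the carnitine genes, so chain length and step cannot be told apart for them. The rest of the list, Acadvl (0.04), Acad9 (0.09), Hadha (0.15) and Hadhb (0.06), was not called. The median log2 fold change of the 8 genes was 0.20. Of 7 genes with medium- and short-chain substrates, 1 was higher (Crat) and 2 were lower (Echs1 and Acaa2), with a median of -0.14. Hsd17b10, which also takes short chains, is not on that list, and with it 3 of 8 were lower and the median was again -0.14. These medians stand beside -0.01 over all genes and carry no test, since each list has few members. The 20 members that were not called had log2 fold changes from -0.20 (Mcat) to 0.34 (Cpt1c). For 19 of the 20 the 95% interval stayed within 1.5-fold in either direction, Cpt1c being the exception with an upper limit of 0.91.

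Per length, the members spanned more than 1000-fold within a tissue. In cold, Etfb (1369 ± 358), Acadvl (1307 ± 178), Acadl (1219.8 ± 84.9) and Hadhb (1183 ± 137) stood above 1000 CPM per kilobase. In ctrl the 6 genes above 1000 were Etfb (1491 ± 234), Acaa2 (1326 ± 100.4), Acadvl (1273 ± 89.5), Hadhb (1183 ± 119), Acadm (1078 ± 122) and Acadl (1019 ± 66.5). Acaa2 stood at rank 6 in cold at 942 ± 128 and at rank 2 in ctrl, and Acadl at rank 3 in cold and rank 6 in ctrl, so the order of these abundant enzymes differed between the groups. Effective lengths in place of annotated ones put the same 6 genes above 1000 in both groups, with Acadm at 1243 and Acaa2 at 1015 in cold, Hadhb at rank 2 in both, Acaa2 at rank 6 in cold and rank 3 in ctrl, and Acadl again at ranks 3 in cold and 6 in ctrl. Most neighbours in the order overlapped: 6 of 31 neighbouring pairs were apart without overlap in cold and 8 of 31 in ctrl. The gaps in cold followed Etfa, Cpt2, Eci2, Hsd17b10, Acsf2 and Acad12. Below Acad12 lay only Cpt1c, at 0.788 ± 0.300 in cold and 0.618 ± 0.216 in ctrl. Cpt1a stood at rank 28 of 32 in cold and at rank 31 in ctrl.

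**Figure D4:**
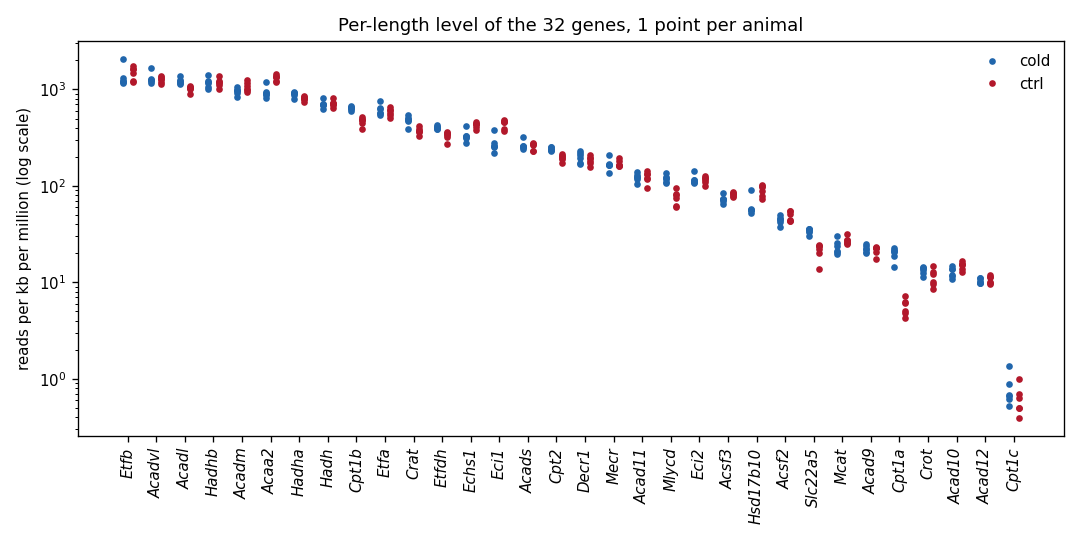
Per-length level of each of the 32 genes in each animal, in CPM per kilobase of annotated transcript on a log axis, ordered by the cold mean, with cold to the left of ctrl for each gene. The points of most neighbouring genes overlap, Cpt1c lies alone at the bottom, and the genes with the largest rises in cold are Cpt1a, Slc22a5 and Mlycd.

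Transcripts were tested in the same way. Of the members' 196 annotated transcripts 187 had reads and 126 passed the filter, of which 12 were higher and 8 lower in cold, against 10.3% called among 30345 transcripts (6.21% higher and 4.06% lower). The 8 lower transcripts became 5 without any 1 of cold 7, 11, 15 or 16 or ctrl 2, 6 or 10, and 4 without ctrl 2 and cold 15. The main transcript carried the change in most called genes. Cpt1a-201, of 4317 nt, was at 86.3 ± 12.9 CPM in cold and 22.6 ± 3.24 CPM in ctrl (log2 fold change 1.93 ± 0.13, adjusted p = 4.00e-06, edgeR). Cpt1b-201 (0.52), Slc22a5-201 (0.81), Mlycd-201 (0.68), Cpt2-201 (0.32), Crat-201 (0.33), Acadl-201 (0.28) and Etfdh-201 (0.35) were higher, and Acaa2-201 (-0.47), Echs1-201 (-0.34), Hsd17b10-201 (-0.50) and Eci1-205 (-0.61) lower. Among genes without a call, Acsf3-202, a minor coding transcript, was lower at 5.70 ± 0.215 CPM in cold and 9.70 ± 1.41 CPM in ctrl (-0.77 ± 0.12, adjusted p = 1.44e-03, edgeR). Acad11-208, a retained-intron transcript, and Acadm-206, a target of nonsense-mediated decay, were lower too (-1.42 and -0.86), both under 5 CPM.

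Eci2 was not called as a gene, but 2 of its transcripts were. Eci2-201, a coding transcript of 1746 nt, was at 25.6 ± 4.18 CPM in cold and 14.2 ± 2.46 CPM in ctrl (log2 fold change 0.85 ± 0.14, adjusted p = 2.03e-03, edgeR). It took 10.4% to 14.6% of the gene's per-length level in cold and 5.32% to 8.11% in ctrl, without overlap. A non-coding Eci2 transcript of 2874 nt rose too (0.87 ± 0.13, adjusted p = 8.30e-04, edgeR), while Eci2-211, the most abundant, held 41.8 ± 6.46% in cold and 46.4 ± 3.97% in ctrl. Of the 31-base words of Eci2 13.6% also occur in other genes, chiefly in Eci3. For Mlycd, the retained-intron transcript Mlycd-202 made up 0.515 ± 0.150% in cold and 1.24 ± 0.190% in ctrl, without overlap. That transcript itself was not called (-0.55 ± 0.25, adjusted p = 0.232, edgeR).

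The mix of transcripts within a gene was also tested directly (edgeR's diffSpliceDGE gene test), in 24 members with more than 1 transcript past the filter. None was called, against 1.45% of 7233 genes, and 4 had an unadjusted p under 0.05 (Eci2, Mlycd, Acadvl and Acsf3). Eci2 and Mlycd were close, with adjusted p = 0.0509 and 0.0569 (diffSpliceDGE), and limma's diffSplice called those 2 (adjusted p = 1.40e-03 and 0.0238). The count depended on single animals: without cold 4 it was 7 members (Eci2, Eci1, Crat, Etfdh, Hadhb, Mlycd and Acad11) among 229 genes. Without ctrl 6 or without ctrl 14 it was 1, Mlycd in the first case and Eci2 in the second.

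**Figure D5:**
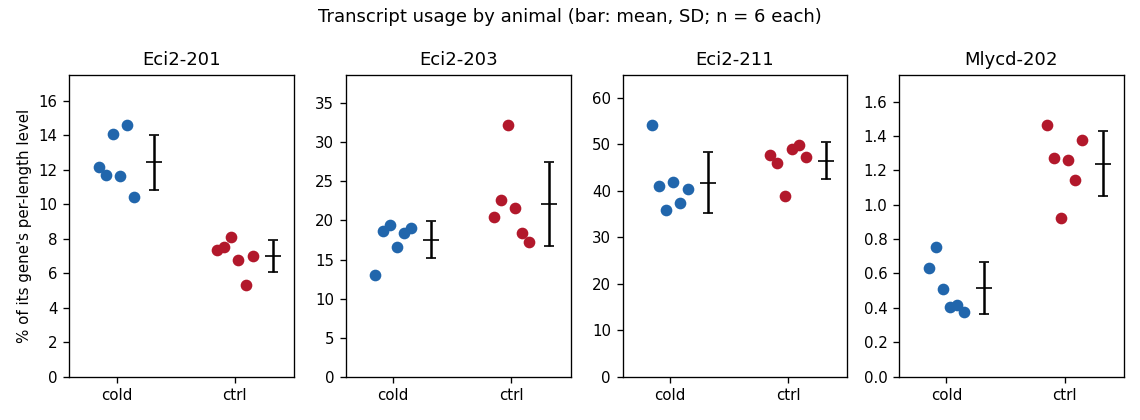
Share of the gene's per-length level held by 3 transcripts of Eci2 and by Mlycd-202 in each animal, cold to the left of ctrl, with mean and SD beside the points. Eci2-201 (10.4% to 14.6% in cold) and Mlycd-202 (0.373% to 0.753% in cold) do not overlap with ctrl, whereas Eci2-203 and Eci2-211 do.

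Genes around the pathway were taken from 8 further lists of 49 genes, of which 47 are in the annotation and 45 were tested. Of these, 14 were higher and 10 lower in cold, 53.3% of those tested against 31.6% of all genes. The lower ones were 6 without ctrl 2, without ctrl 2 and cold 15, and with the effective length offset. From each list the gene with the smallest p is given. The carrier Slc25a20, which moves acylcarnitines across the inner membrane, is not a member but completes the shuttle. It was at 609.8 to 794 CPM in cold and 467 to 659 CPM in ctrl, and just missed the threshold (0.25 ± 0.09, adjusted p = 0.0503, edgeR). Of the 5 tested carnitine carriers and carnitine synthesis genes, none was higher and 2 were lower, with Slc22a21, a carnitine transporter close to Slc22a5, lowest in p at 0.600 ± 0.239 CPM in cold and 1.18 ± 0.378 CPM in ctrl (-0.97 ± 0.31, adjusted p = 0.0247, edgeR). That call was lost with the effective length offset (adjusted p = 0.290, edgeR), without ctrl 2 (0.0529), without ctrl 5 (0.0692) and without ctrl 2 and cold 15 (0.0831). Slc22a21 shares 31-base words with Slc22a5, so reads could be split between them.

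Of 4 genes listed around malonyl-CoA supply, 3 were lower (Acaca, Acly and Fasn) and none higher. Acly, which makes cytosolic acetyl-CoA, differed by -2.25 on the log2 scale, and Fasn, fatty acid synthase, which uses malonyl-CoA rather than supplying it, by -1.45. Acaca, acetyl-CoA carboxylase 1 of the cytosol, ran from 804 to 1469.9 CPM (median 1378) in cold and from 2788 to 4767 CPM (median 3289) in ctrl (-1.50 ± 0.16, adjusted p = 8.16e-06, edgeR). Acacb, the carboxylase held at the mitochondrial surface, whose product is thought to act on carnitine palmitoyltransferase 1, was the gene of this list that was not called, with 2286 ± 453 CPM in cold and 2383 ± 200.3 CPM in ctrl (-0.06 ± 0.12, adjusted p = 0.754, edgeR). Of 7 fatty acyl-CoA synthetases 3 were higher and 3 lower, led by Acss1, the mitochondrial acetyl-CoA synthetase (1.09 ± 0.09, adjusted p = 2.17e-07, edgeR). Acss1 was at 300.2 to 393 CPM in cold and 136 to 182 CPM in ctrl. Of 4 mitochondrial acyl-CoA thioesterases 2 were higher, led by Them4 with 20.3 ± 1.25 CPM in cold and 9.85 ± 0.978 CPM in ctrl (1.05 ± 0.09, adjusted p = 1.99e-07, edgeR). Slc25a20 and Acacb were chosen after their values were seen.

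The acyl-CoA dehydrogenases of amino acid breakdown gave 1 call of 4, Acad8, at 61.1 ± 3.91 CPM in cold and 69.6 ± 3.89 CPM in ctrl (-0.19 ± 0.07, adjusted p = 0.0407, edgeR), which was lost in 15 of 24 alternatives. Of 6 genes for the acetoacetyl-CoA thiolase, flavin supply and modifiers of the flavoprotein, 2 were higher. Flad1, which makes the FAD that all acyl-CoA dehydrogenases bind, was at 139 to 147 CPM in cold and 79.6 to 89.5 CPM in ctrl (0.76 ± 0.06, adjusted p = 1.42e-07, edgeR). Of 6 genes of mitochondrial fatty acid synthesis 2 were higher and 1 lower, led by Oxsm, the ketoacyl synthase (0.41 ± 0.08, adjusted p = 1.33e-03, edgeR). Of 9 nuclear receptors and coactivators 5 were higher and none lower. Ppargc1a, the coactivator PGC-1alpha, ran from 224 to 411 CPM (median 339) in cold and from 44.4 to 63.5 CPM (median 54.6) in ctrl (2.55 ± 0.16, adjusted p = 3.08e-08, edgeR).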

How the data were processed

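The authors deposited 1 file per animal with estimated counts of reads for 140658 transcripts, not normalized, and TPM, per the file headers. Salmon, cutadapt, bcl2fastq and GRCm38 are listed, with no version, per the submitters' processing notes. Libraries kept strand information and were read from both ends at 50 nt, per the labels' protocols. Transcripts were tied to GENCODE M21 genes by identifier without version (140137 matched, and the other 521 held 0.0866% to 0.152% of reads). Estimated counts were summed per gene and rounded to whole numbers.

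Genes past filterByExpr (minimum count 10) were scaled by TMM and tested with edgeR's robust quasi-likelihood fit, with the 6 cold against the 6 ctrl animals and no covariate. The fit's biological coefficient of variation was 20.6%. Standard errors of log2 fold changes were derived as the absolute log2 fold change over the square root of the test's F statistic. The 95% intervals were built from them. The same test was used for transcripts, and transcript mixes with diffSpliceDGE. CPM are TMM-scaled counts. Per-length levels divide counts by annotated transcript length, because TPM of ctrl 2 were dominated (55.2%, against 2.36% to 8.41% elsewhere) by transcripts with an effective length under 50 nt. Deposited TPM served only as an alternative for ratios and as weights for the gene lengths in the effective length offset. On simulated data the gene test kept to its threshold, whereas the test of transcript mixes called more unchanged genes than its threshold allows. The simulated counts were drawn independently for each gene, with few genes changed. The real libraries differ in this, so the simulation does not show that the gene test keeps its threshold here.

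The members and lists were chosen with earlier results of these data known. All 32 members are described, and from each further list the gene with the smallest p. Alternatives were other scaling (RLE, library totals), DESeq2 and limma-voom, other filters, an effective length offset, mitochondrial genes removed, a muscle or mouse number covariate, and libraries left out. Summing the genes that overlap Cpt1b and Etfb was added after seeing the data. Protein sequences were not used here. No mouse number occurs in both groups, so no pairing was made. Work was done in R 4.3.3 (edgeR 4.0.16, limma 3.58.1, DESeq2 1.42.0) and Python 3.11.15.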

Additional observations from a re-analysis of the deposited data

Results flagged for a closer look

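Among the 64 sets of 6 animals (32 genes in each group), 10 held 1 animal whose distance to its nearest neighbour took more of the whole range than Dixon's 95% critical value, and 8 of these were in cold 4. Chance flags about 1 set in 20, and genes of 1 library are not independent. Cold 4 was the highest cold animal for Acadvl (3520.0 CPM, the next at 2711), Acads (598.5 CPM, next 471), Echs1 (649.6 CPM, next 517) and Acaa2 (1798 CPM, next 1427). The same held for Hsd17b10 (86.3 CPM, next 55.3), Eci2 (201 CPM, next 157), Etfb (1579 CPM, next 969) and Mcat (58.1 CPM, next 42.6). Acadl was at 1712 CPM in ctrl 9, with the next ctrl animal at 1934 CPM. Mcat was at 54.5 CPM in ctrl 2, with the next at 48.5 CPM.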

How the results depend on the processing

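All 12 called members kept their direction and call under each of 24 alternatives, some of them narrowly. The highest adjusted p was 0.0478 for Acadl and 0.0328 for Echs1 (over the edgeR, DESeq2 and limma-voom fits). Of the 24 alternatives, 12 leave out 1 animal. With library totals 1409 genes were lower, in place of 2134. The directions that turned belonged to members without a call (log2 fold changes): Acad12 (0.047), Hadh (0.070) and Mecr (0.071) with library totals, Acad11 (-0.029) with the effective length offset, Mecr (0.036 with the muscle and 0.0054 with the mouse number covariate), and Acad12 (0.0076), Hadh (0.049) and Mecr (0.066) without ctrl 2 and cold 15. With single animals left out, log2 fold changes of Acadvl ran from -0.036 to 0.076, of Acads from -0.036 to 0.061, of Acad11 from -0.0013 to 0.11, of Hadh from -0.061 to 0.021, of Eci2 from -0.039 to 0.069 and of Mecr from -0.090 to 0.033. Lower members then numbered 4 to 7, lower member transcripts 5 to 12, genes with a usage call 63 to 229 and members with one 0 to 7. Usage calls numbered 16 genes with Simes, 226 with limma's diffSplice (2 members), 169 with the stricter filter (1 member) and 55 without ctrl 2 and cold 15, where 2019 transcripts were called, 4 of them lower member transcripts. From effective length or deposited TPM, Hadha over Hadhb was 0.56 in cold and 0.51 in ctrl, Etfa over Etfb 0.595 in cold and 0.486 in ctrl, and the Acadl share 35.4% in cold and 30.4% in ctrl. The cause of these changes was not tested. No paired analysis was possible because the groups share no mouse number. Depth limits Cpt1c and transcripts of few reads.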

Other observations

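Eci3, an isomerase close in sequence to Eci2, was named after its values were seen. It had 1.11 to 1.84 CPM in cold and 4.96 to 6.78 CPM in ctrl, without overlap (log2 fold change -2.08, adjusted p = 9.60e-08, edgeR). Part of its sequence is shared with Eci2, so reads could be split between them, and the level of Eci2 was 159 ± 21.5 CPM in cold and 155 ± 12.7 CPM in ctrl. Dvl2, a signalling gene on the opposite strand that overlaps 42.9% of the exon bases of Acadvl, had 4.65 CPM in cold and 9.03 CPM in ctrl (-0.94, adjusted p = 5.93e-03, edgeR). Acadvl itself was at 2766 ± 380.1 CPM in cold and 2688 ± 192 CPM in ctrl.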
